A study of Mus musculus with 12 samples.

Results

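Molecular chaperones of the cytosol and the mitochondria were followed in alveolar macrophages, which live in the airspaces of the lung and clear particles and surfactant. The set held 37 genes, chosen by name: the HSP70, HSP90, HSP60 and small heat shock proteins outside the endoplasmic reticulum (ER), the 8 subunits of the chaperonin TRiC, their cochaperones, and Hsf1. Of these, 33 had a probe on the array and 31 passed the filter for detection, among 6563 genes tested in all. The cells came from C57Bl/6J mice aged 8 to 12 weeks and were collected with 8 lung washes of 1 ml. They formed 4 groups of 3 arrays: Lmp7 knockout cells polarized with interleukin-4 (IL-4, 20 ng/ml for up to 24 h), called knockout M2; unpolarized knockout cells, knockout M0; and the same states of cells from wild-type mice, wild-type M2 and wild-type M0. Lmp7 is the protein name of Psmb8, an inducible catalytic subunit of the immunoproteasome, the form of the proteasome that immune cells favour. The labels name neither the knockout allele nor a separate mouse for each array, so p-values measure only the spread between arrays, which may be technical.

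Chaperones bind unfolded or partly folded proteins and keep them from aggregating. HSP70 proteins bind short exposed stretches in cycles of ATP hydrolysis that J proteins start and exchange factors such as Hsph1 end; HSP90 acts on nearly folded clients such as kinases and steroid receptors; TRiC and the mitochondrial Hspd1 with Hspe1 enclose a client in a chamber. Many of these genes carry heat shock elements, inverted repeats of the bases GAA that the factor HSF1 binds, and proteasome inhibitors are known to raise their transcription in many cell types.

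Values are log2 intensities after background correction and quantile normalization, and one probe, the brightest, stands for a gene; levels of different genes are on no common scale. Psmb8 was not detected on any of the 6 knockout arrays, with 5.79, 5.62 and 5.72 log2 units in knockout M2 and 5.49, 5.36 and 5.67 in knockout M0, against 7.96, 7.78 and 7.75 in wild-type M2 and 7.82, 7.53 and 8.04 in wild-type M0. The share of probes detected was 25.5% to 34.2% of 25697, lowest on array a of knockout M2, of knockout M0 and of wild-type M0. Of the alveolar macrophage markers with a probe, 6 of 7 were detected and Car4 was not. In bulk RNA, a change in the share of a cell type and a change per cell cannot be told apart.

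Under IL-4, 6 of the 31 chaperones rose in both genotypes. The share of all genes that rose in both is not given. In single genotypes, 10.3% of all genes rose in knockout cells and 8.43% in wild-type cells. The HSP110 protein Hsph1, the mitochondrial HSP70 Hspa9, the mitochondrial HSP60 Hspd1 and the TRiC subunits Cct3, Cct6a and Cct8 made up the 6 chaperones, with rises of 1.24-fold to 1.80-fold. In knockout cells Hsp90aa1 and Tcp1 passed the threshold as well, and the J protein Dnajb6 fell. The constitutive cytosolic HSP70 Hspa8 did not pass in either genotype.

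In knockout cells 8 of the 31 chaperones were higher at an adjusted p under 0.05 and 1 was lower (limma, adjusted over 6563 genes), where 10.3% of all genes tested were higher and 11.4% lower. An unadjusted p under 0.05 was reached by 18 of the 31 (58.1%), against 32.9% of all genes. The median log2 difference, M2 minus M0, was 0.30 over the chaperones, against 0.0036 over all genes, and 24 of the 31 were positive. The M2 and M0 arrays did not overlap for 15 chaperones that were higher in M2 and for 5 that were lower, Dnajb6, Hspb1, Cct4, Hspa8 and Cct2, beside 17.8% and 18.6% of all genes. In wild-type cells 6 chaperones were higher and 0 were lower, beside 8.43% and 7.62% of all genes, and 15 (48.4%) reached an unadjusted p under 0.05, against 28.4% of all genes. The median was 0.26 over the chaperones and 0.0030 over all genes, and 26 of the 31 were positive. Here 15 chaperones were higher without overlap and 1, Dnajb6, was lower, beside 17.3% and 16.8% of all genes. With each array scaled to the median of all its probes in place of quantile normalization, 2 chaperones passed in knockout cells, Hsph1 higher and Dnajb6 lower, and 0 in wild-type cells, and the medians of the chaperones relative to all genes stayed positive. Under that scaling the calls over all genes also dropped: 750 genes (11.4%) passed in knockout cells, against 1422 (21.7%) with quantile normalization, and 469 (7.15%) in wild-type cells, against 1053. S100a8, a neutrophil marker that was detected on all 12 arrays, fell under IL-4 by 1.42 ± 0.152 log2 units in knockout cells and by 1.03 ± 0.152 in wild-type cells (SE; adjusted p = 7.51e-05 and 0.00112). The summed linear level of the 5 measured neutrophil markers was 254.8 to 288.8 in knockout M2 against 401.5 to 505.4 in knockout M0, and 251.9 to 278.3 in wild-type M2 against 337.9 to 352.2 in wild-type M0; S100a9, Mpo and Retnlg were undetected on every array, and Camp, detected on 3, averaged 5.85 log2 units in knockout M2 against 5.76 in knockout M0, and 6.07 in wild-type M2 against 5.51 in wild-type M0. S100a8 was thus the only one of the 5 that fell past the threshold. The part of such cells in the chaperone values was not tested.

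**Figure D1:**
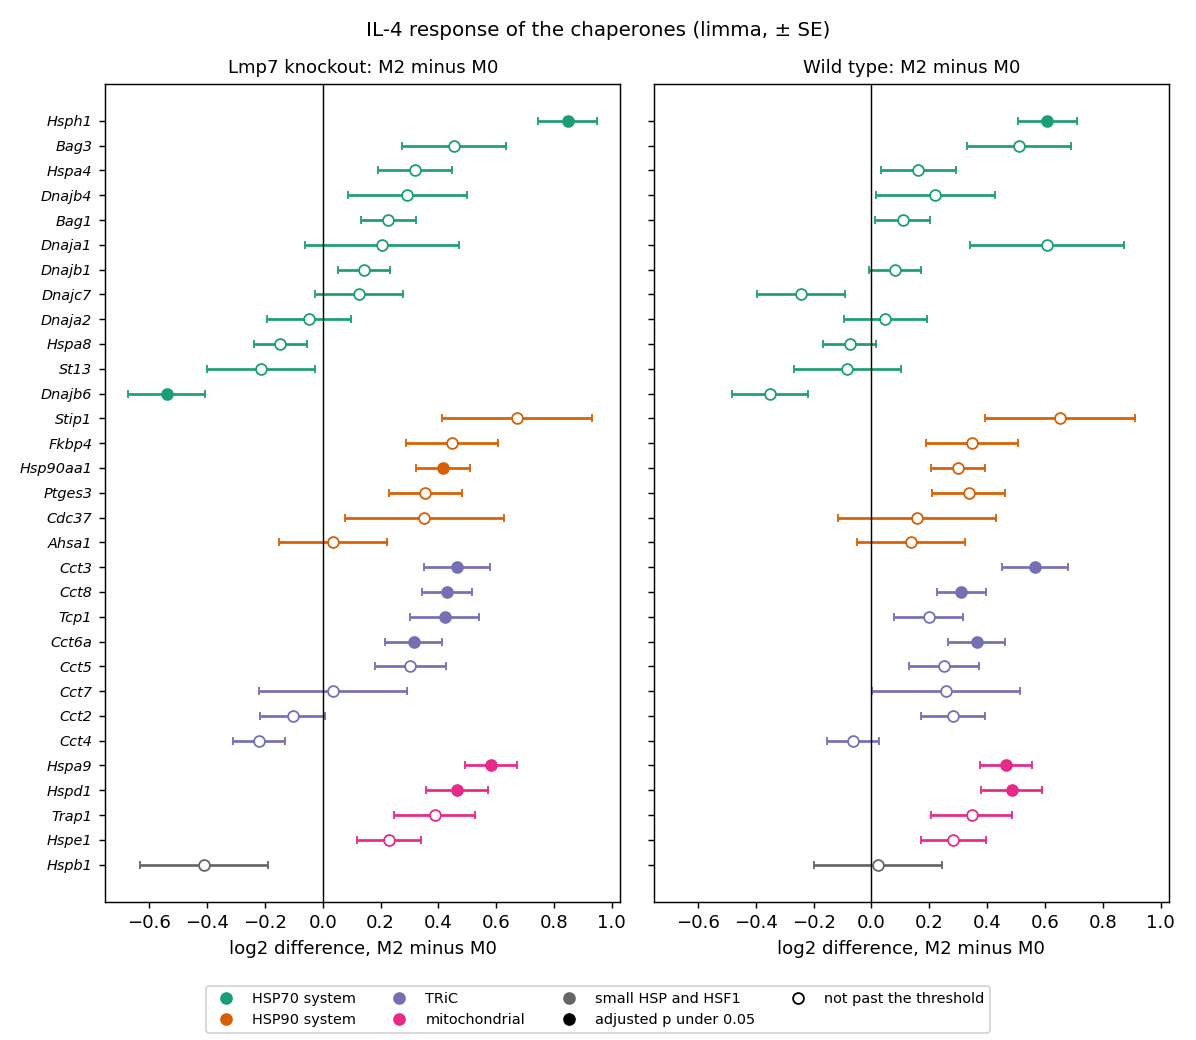
IL-4 response of the 31 tested chaperones as log2 difference, M2 minus M0, with its standard error from limma, for Lmp7 knockout (left) and wild-type cells (right), coloured by family; filled points passed an adjusted p of 0.05. All 6 HSP90-system genes and all 4 mitochondrial genes lie right of 0 in both genotypes (5 of 6 and 4 of 4 in knockout cells with arrays scaled to the median of all probes), and Hsph1 is the farthest right in knockout cells.

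The IL-4 responses of the knockout and wild-type cells come from different arrays. Over the 31 chaperones they correlated with Pearson's r = 0.800 and Spearman's rho = 0.819, as a description across genes that share the same 12 arrays, and 27 had the same sign in both. The 6 genes that rose in both genotypes were 66.7% of the 9 called in knockout cells and all 6 called in wild-type cells. Of these 6, 3 had the larger response in knockout cells. Values over all genes are not given for the correlation, the shared signs or the overlap of calls. None of them is therefore shown to be particular to the chaperones.

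The promoters of 4 members held a run of at least 3 units of the heat shock element, and their sequences are shown because Hsph1, Hspd1 and Dnajb6 are among the genes that moved. The windows run from 250 bases before to 50 bases after the annotated start, are taken from RefSeq on GRCm38.p6, and are written 5′ to 3′ on the strand of the gene, with the run in capitals. The Hsph1 window is chr5:149636287-149636586 on the minus strand, the Dnajb6 window chr5:29735648-29735947 on the plus strand, the Hspd1 window chr1:55087883-55088182 on the minus strand and the Hspe1 window chr1:55087898-55088197 on the plus strand.
Hsph1: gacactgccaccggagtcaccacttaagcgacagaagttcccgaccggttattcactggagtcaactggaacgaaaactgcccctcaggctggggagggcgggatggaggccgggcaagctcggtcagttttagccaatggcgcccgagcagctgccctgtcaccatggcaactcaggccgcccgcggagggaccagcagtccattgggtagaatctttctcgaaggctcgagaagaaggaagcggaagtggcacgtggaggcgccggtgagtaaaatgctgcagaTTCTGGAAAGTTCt
Dnajb6: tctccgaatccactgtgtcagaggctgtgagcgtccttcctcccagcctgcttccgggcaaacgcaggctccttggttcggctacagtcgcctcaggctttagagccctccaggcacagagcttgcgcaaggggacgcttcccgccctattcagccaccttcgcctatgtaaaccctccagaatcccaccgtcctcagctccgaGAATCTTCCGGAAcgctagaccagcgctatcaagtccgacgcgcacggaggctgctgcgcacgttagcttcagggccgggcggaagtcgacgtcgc
Hspd1: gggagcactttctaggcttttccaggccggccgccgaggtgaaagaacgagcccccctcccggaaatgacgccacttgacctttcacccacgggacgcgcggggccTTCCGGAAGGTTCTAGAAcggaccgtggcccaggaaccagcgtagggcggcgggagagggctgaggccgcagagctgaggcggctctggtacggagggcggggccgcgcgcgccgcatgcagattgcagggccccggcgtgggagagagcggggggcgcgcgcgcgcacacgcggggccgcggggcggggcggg
Hspe1: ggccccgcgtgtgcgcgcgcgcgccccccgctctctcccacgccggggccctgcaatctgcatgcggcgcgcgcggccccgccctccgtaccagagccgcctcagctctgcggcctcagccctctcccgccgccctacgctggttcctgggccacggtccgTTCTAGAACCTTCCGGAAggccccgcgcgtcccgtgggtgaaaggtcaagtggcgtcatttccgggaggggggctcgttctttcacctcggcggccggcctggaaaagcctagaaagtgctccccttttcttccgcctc
The letters searched were GAANNTTCNNGAA and TTCNNGAANNTTC, which are each other's reverse complement and so cover both strands; overlapping matches were joined. Hspd1 and Hspe1 are neighbours transcribed away from each other. Their printed windows share 285 bases, and the run of 18 bases in both is the same element. The window of the other annotated start of Hspd1 shares 4 bases with that of Hspe1. Hsph1, Dnajb6 and Hspd1 each had 2 annotated starts, and positions count from the start used for the printed window. In Hsph1 the run lies 37 to 49 bases after that start, and in Dnajb6 it lies from position -46 to -34, upstream. Of the 37 genes, 30 had a window in the table, and 4 of these (13.3%) held a run of 3 units, against 0.662% of 27025 genes. The shorter pattern GAANNTTC or TTCNNGAA, which lies inside every such run, was in 17 of 30 (56.7%), against 17.0% of all genes. A match describes letters in a window and says nothing of binding in these cells; Hsf1 itself was not analysed here.

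**Figure D2:**
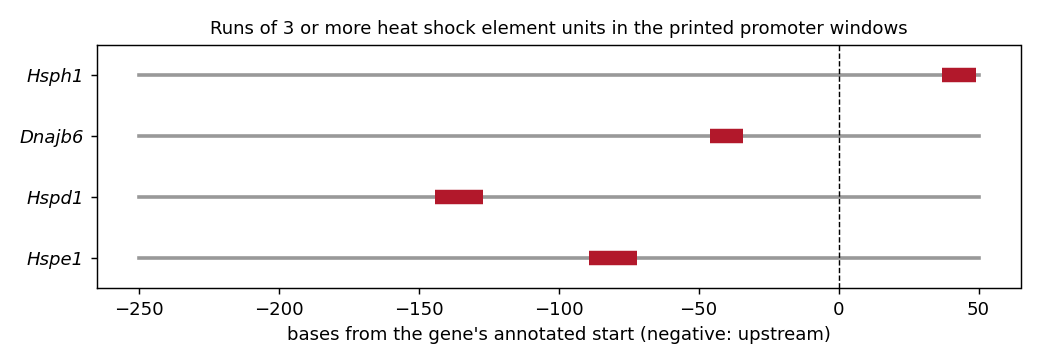
Position of each run of 3 or more heat shock element units in the printed windows of Hsph1, Dnajb6, Hspd1 and Hspe1. Positions are in bases from the annotated start used for that window (dashed line, with negative upstream). The run lies after the start in Hsph1 and before it in the other 3 genes.

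Hsph1, an HSP110 protein that exchanges nucleotide on HSP70, had 8.51, 8.68 and 8.52 log2 units in knockout M2, 7.63, 7.72 and 7.83 in knockout M0, 8.82, 9.02 and 8.92 in wild-type M2 and 8.29, 8.37 and 8.28 in wild-type M0. The 4 groups did not overlap, with wild-type M2 highest and knockout M0 lowest. IL-4 raised it by 0.85 ± 0.102 log2 units in knockout cells (SE; adjusted p = 0.000163) and by 0.61 ± 0.102 in wild-type cells (adjusted p = 0.00227). These are 1.80-fold and 1.52-fold, and the rise in knockout cells passed under every one of the 23 alternative settings. This gene has the run of heat shock units just after the annotated start of its printed window.

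Dnajb6, a J protein known for holding back the aggregation of polyglutamine proteins, went the other way. It had 8.27, 8.04 and 8.29 log2 units in knockout M2 against 8.94, 8.64 and 8.63 in knockout M0, and 8.50, 8.32 and 8.39 in wild-type M2 against 8.97, 8.62 and 8.68 in wild-type M0. M2 arrays lay below M0 arrays in both genotypes, without overlap. The difference was -0.54 ± 0.132 in knockout cells (SE; adjusted p = 0.0134) and -0.35 ± 0.132 in wild-type cells (adjusted p = 0.102), so that only the knockout value passed, and it missed the threshold without array a of knockout M0 (-0.44, adjusted p = 0.0520) or without array b of knockout M2 (-0.46, adjusted p = 0.0525). A dimmer probe of the gene gave -0.43 and -0.42. Dnajb6 and Hsph1 both carry a run of heat shock units, and their IL-4 responses had opposite signs.

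Hspa8, the constitutive cytosolic HSP70, had 11.70, 11.84 and 11.78 log2 units in knockout M2 against 11.88, 11.95 and 11.93 in knockout M0, and 11.81, 11.86 and 11.88 in wild-type M2 against 11.85, 12.03 and 11.90 in wild-type M0. Its differences were -0.15 ± 0.0915 in knockout cells and -0.08 ± 0.0915 in wild-type cells (SE; adjusted p = 0.305 and 0.659). The groups did not overlap in knockout cells and overlapped in wild-type cells. Bag3, an exchange factor that links HSP70 to selective autophagy, had 8.08, 7.99 and 8.04 in knockout M2 against 7.60, 7.72 and 7.44 in knockout M0, and 7.78, 8.40 and 8.48 in wild-type M2 against 7.47, 7.82 and 7.84 in wild-type M0. One low wild-type M2 array overlapped the M0 range, and neither difference passed, at 0.45 (adjusted p = 0.0998) and 0.51 (adjusted p = 0.0797). The heat-inducible Hspa1a was undetected on all 12 arrays, with a lowest detection p of 0.128, and Hspa1b and the ubiquitin ligase Stub1, which tags HSP70 clients, were not analysed here.

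The other 8 HSP70-system genes did not pass in either genotype. The exchange factors Hspa4 and Bag1 had 0.32 and 0.23 log2 units in knockout cells (adjusted p = 0.108 and 0.121), and the J protein Dnajb1 had 0.14 (adjusted p = 0.305). Dnaja1, another J protein, was undetected on every wild-type M0 array and detected on 2 arrays of each other group. Dnajb4 was detected on 5 of 12 arrays. Dnaja2, Dnajc7 and St13, the last a cochaperone that steadies the client-bound HSP70, had differences of -0.05, 0.13 and -0.21 in knockout cells and 0.05, -0.24 and -0.08 in wild-type cells. Over the family of 12 tested genes, the median was 0.17 in knockout and 0.09 in wild-type cells, the lower pair of medians among the families with more than one gene.

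Hsp90aa1, the inducible cytosolic HSP90, had 8.93, 8.86 and 8.86 log2 units in knockout M2 against 8.32, 8.52 and 8.56 in knockout M0, and 8.94, 8.99 and 8.93 in wild-type M2 against 8.66, 8.62 and 8.68 in wild-type M0. M2 arrays lay above M0 arrays in both genotypes. The difference was 0.42 ± 0.0935 in knockout cells (SE; adjusted p = 0.00838), and 0.30 ± 0.0935 in wild-type cells just missed the threshold (adjusted p = 0.0524). A dimmer probe, detected on 9 arrays, gave 0.01 and 0.20, and the mean of both probes did not pass in knockout cells (0.21, adjusted p = 0.235). Leaving out together the 3 arrays with the fewest detected probes, the knockout difference did not pass either (0.32, adjusted p = 0.101). The constitutive partner Hsp90ab1 was not analysed here.

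The 5 HSP90 cochaperones tested were all positive in both genotypes, except for 1 in knockout cells with arrays scaled to the median of all probes. None passed in the main fit of all 12 arrays. Stip1, which hands clients from HSP70 to HSP90, had 0.67 in knockout and 0.65 in wild-type cells (adjusted p = 0.0939 and 0.121) and was detected on 9 of 12 arrays. Fkbp4, an immunophilin of steroid receptor complexes, had 0.45 and 0.35 (adjusted p = 0.0696 and 0.178), and Ptges3, the p23 protein that holds HSP90 closed on its client, had 0.35 and 0.34 (adjusted p = 0.0689 and 0.0997). With the replicate number as a block on the authors' processed values, Stip1, Fkbp4 and Ptges3 passed in knockout cells (adjusted p = 0.0231, 0.0425 and 0.0217). Without a block, each of these also passed in knockout cells under some alternative settings, and Stip1 and Ptges3 did so in wild-type cells. The kinase-loading factor Cdc37 had 0.35 and 0.16, and Ahsa1, which speeds the HSP90 ATPase, had 0.04 and 0.14. The family's medians of 0.38 and 0.32 therefore rest on genes that did not pass one by one in the main fit, apart from Hsp90aa1 in knockout cells.

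TRiC is built of 8 different subunits and folds actin, tubulin and other proteins, and all 8 subunits were measured. Cct3 had 9.35, 9.27 and 9.26 log2 units in knockout M2 against 8.61, 9.0 and 8.89 in knockout M0, and 9.27, 9.25 and 9.41 in wild-type M2 against 8.71, 8.72 and 8.81 in wild-type M0. M2 arrays lay above M0 arrays in both genotypes, by 0.46 ± 0.114 in knockout and 0.57 ± 0.114 in wild-type cells (SE; adjusted p = 0.0134 and 0.00658). A dimmer probe, detected on 5 arrays, gave 0.43 and 0.73. The mean of both probes did not pass in knockout cells (0.45, adjusted p = 0.0945) and passed in wild-type cells (0.65, adjusted p = 0.0260).

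Cct8 had 9.60, 9.59 and 9.51 log2 units in knockout M2 against 9.09, 9.13 and 9.19 in knockout M0, and 9.60, 9.65 and 9.66 in wild-type M2 against 9.36, 9.32 and 9.30 in wild-type M0. It was higher in M2 by 0.43 ± 0.0853 in knockout and 0.31 ± 0.0853 in wild-type cells (SE; adjusted p = 0.00407 and 0.0294). Cct6a had 10.29, 10.40 and 10.43 in knockout M2 against 10.21, 9.92 and 10.05 in knockout M0, and 10.43, 10.40 and 10.43 in wild-type M2 against 10.10, 10.04 and 10.03 in wild-type M0. Its groups did not overlap in either genotype, and the differences were 0.32 ± 0.0988 and 0.36 ± 0.0988 (SE; adjusted p = 0.0415 and 0.0276).

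Tcp1, the subunit that gave the complex its name, had 9.64, 9.68 and 9.55 log2 units in knockout M2 against 9.03, 9.14 and 9.44 in knockout M0, and 9.63, 9.75 and 9.60 in wild-type M2 against 9.51, 9.53 and 9.34 in wild-type M0. It passed in knockout cells (0.42 ± 0.120 SE, adjusted p = 0.0269) and not in wild-type cells (0.20 ± 0.120, adjusted p = 0.319). The M2 and M0 arrays did not overlap in either genotype. Its dimmer probe gave 0.20 in knockout and 0.34 in wild-type cells, the opposite order of size.

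Not every subunit followed. Cct4 had 9.60, 9.58 and 9.56 log2 units in knockout M2 against 9.81, 9.78 and 9.80 in knockout M0, lower on every M2 array, with a difference of -0.22 (adjusted p = 0.109), and -0.06 in wild-type cells. Cct2 had -0.10 in knockout and 0.28 in wild-type cells (adjusted p = 0.584 and 0.119), Cct7 had 0.04 and 0.26, and Cct5 had 0.30 and 0.25. The subunits assemble in equal numbers, and their transcript differences in knockout cells ran from -0.22 to 0.46. Several TRiC calls depended on single arrays. Cct6a in knockout cells missed the threshold in 11 of 12 fits that each left out 1 array (adjusted p up to 0.154), Tcp1 in 4 (up to 0.0961), and Cct6a and Cct8 in wild-type cells in 6 each (up to 0.0797 and 0.0886). Leaving out together the 3 arrays with the fewest detected probes, Cct3, Cct8 and Tcp1 in knockout cells and Cct8 in wild-type cells no longer passed (adjusted p = 0.124, 0.0545, 0.184 and 0.0753).

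In mitochondria, Hspa9, the HSP70 that pulls in imported proteins and assists their folding, had 10.35, 10.37 and 10.26 log2 units in knockout M2 against 9.83, 9.73 and 9.67 in knockout M0, and 10.28, 10.37 and 10.35 in wild-type M2 against 9.82, 9.89 and 9.90 in wild-type M0. M2 arrays lay above M0 arrays without overlap. IL-4 raised it by 0.58 ± 0.0899 in knockout and 0.47 ± 0.0899 in wild-type cells (SE; adjusted p = 0.000834 and 0.00504). Its other probe gave 0.63 and 0.49.

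Hspd1, the HSP60 chamber, had 10.32, 10.16 and 10.17 log2 units in knockout M2 against 9.84, 9.65 and 9.76 in knockout M0, and 10.41, 10.27 and 10.31 in wild-type M2 against 9.98, 9.86 and 9.71 in wild-type M0. It rose by 0.47 ± 0.107 in knockout and 0.48 ± 0.107 in wild-type cells (SE; adjusted p = 0.00929 and 0.0102). A dimmer probe gave 0.35 and 0.19, and the mean of both probes did not pass in wild-type cells (0.34, adjusted p = 0.0610).

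Hspe1, the lid of that chamber, shares the promoter region printed above with Hspd1. It had 10.43, 10.24 and 10.10 log2 units in knockout M2 against 9.95, 10.13 and 9.99 in knockout M0, and 10.31, 10.38 and 10.20 in wild-type M2 against 10.10, 9.99 and 9.95 in wild-type M0. The knockout groups overlapped and the wild-type groups did not. Its differences of 0.23 ± 0.111 and 0.28 ± 0.111 did not pass (SE; adjusted p = 0.180 and 0.116), and whether they differ from those of Hspd1 was not tested. Trap1, the mitochondrial HSP90, had 8.54, 8.28 and 8.54 in knockout M2 against 8.19, 7.88 and 8.12 in knockout M0, and 8.51, 8.39 and 8.28 in wild-type M2 against 7.93, 7.91 and 8.29 in wild-type M0. Its differences were 0.39 and 0.35 (adjusted p = 0.0738 and 0.125), and it passed in knockout cells with the replicate number as a block on the authors' processed values (adjusted p = 0.0411).

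The small heat shock proteins hold unfolded proteins without ATP. Hspb1 had 6.11, 5.66 and 5.82 log2 units in knockout M2, where no array detected it, against 6.43, 6.26 and 6.14 in knockout M0, and 6.38, 5.65 and 6.21 in wild-type M2 against 6.47, 5.90 and 5.79 in wild-type M0. It was detected on 7 of the 12 arrays, and neither response passed (adjusted p = 0.228 and 0.966). Hspb8 was undetected on all 12 arrays, with a lowest detection p of 0.573. Of the 31 tested genes, 27 were detected on all 12 arrays, and these include all 9 that passed in either genotype.

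**Figure D3:**
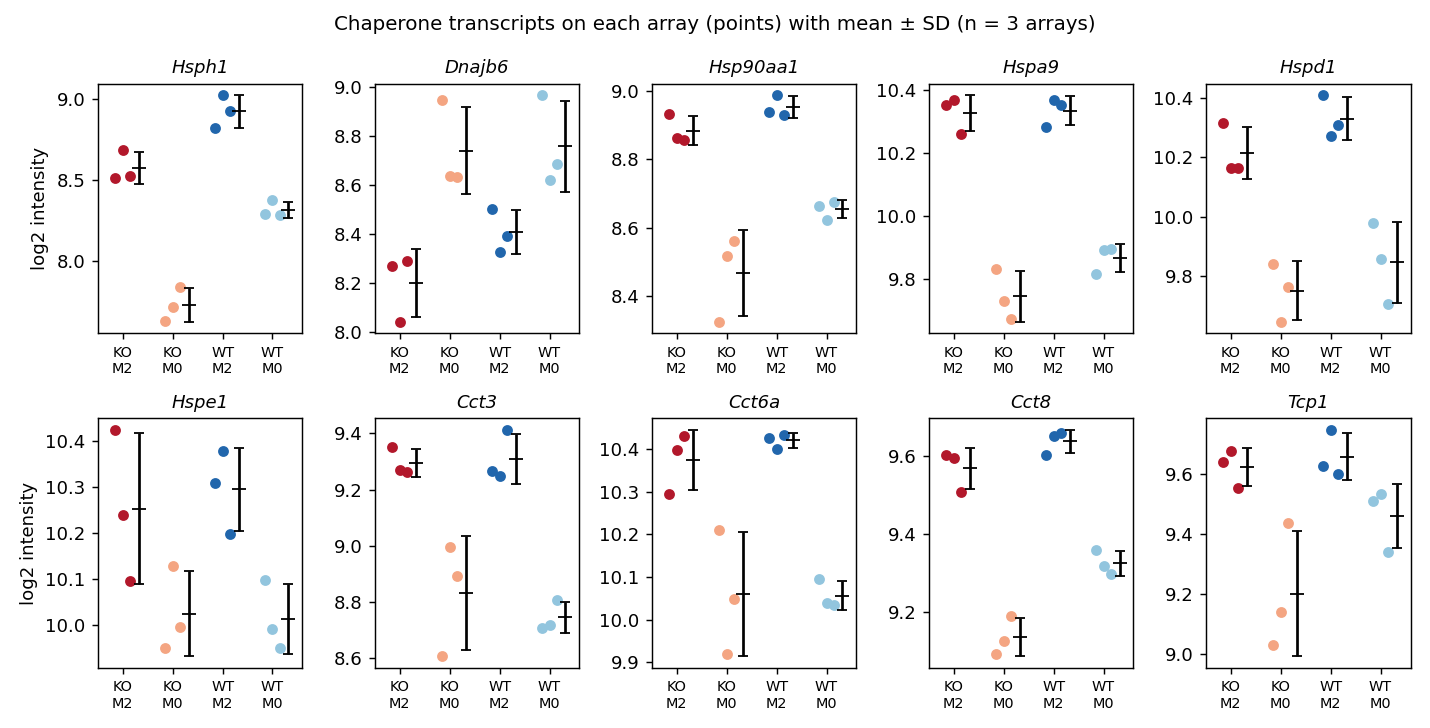
Log2 intensity of 10 chaperones on each array (points) with mean and SD (bars, n = 3 arrays), in knockout M2, knockout M0, wild-type M2 and wild-type M0 from left to right; each panel has its own scale. Hsph1 has 4 separate groups, Dnajb6 runs opposite to the other genes, and knockout M2 overlaps knockout M0 for Hspe1.

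Between genotypes, few chaperones differed. Hsph1 was lower in knockout than in wild-type M0 cells, and no chaperone passed in M2 cells. In M0 cells 1 of the 31 passed, beside 0.686% of all genes in either direction. The difference for Hsph1 was -0.59 ± 0.102 log2 units, knockout minus wild type (SE; adjusted p = 0.0269), which is 1.50-fold lower. It was lower on all 3 knockout arrays than on any wild-type array. The value ran from -0.64 to -0.54 when 1 array was left out. It missed the threshold when any one of the 6 M0 arrays, or array c of wild-type M2, was the one left out (adjusted p up to 0.104). Leaving out together the 3 arrays with the fewest detected probes, it was -0.55 (adjusted p = 0.216). The other 30 ran from -0.26 for Tcp1 to 0.59 for Dnaja1, which was undetected in wild-type M0, and none of them passed (lowest adjusted p among them 0.503). The median was -0.06, with 21 of 31 negative, and it was 0.0009 with arrays scaled to the median of all probes. The arrays did not overlap for 1 chaperone that was higher in knockout cells, Dnaja1, and for 4 that were lower, Hsph1, Cct8, Hsp90aa1 and Bag1, beside 7.39% of all genes higher and 7.39% lower.

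In M2 cells 0 of the 31 passed with limma, beside 2.04% of all genes. An unadjusted p under 0.05 was reached by 3 (9.68%), against 12.1% of all genes. These were Cct2 (-0.42 ± 0.112 SE, adjusted p = 0.0902), Hsph1 (-0.35 ± 0.102, adjusted p = 0.129) and Cct4 (-0.20 ± 0.0896, adjusted p = 0.405). Cct2, a TRiC subunit, had 6.71, 6.70 and 6.68 log2 units in knockout M2, against 7.18, 7.15 and 7.03 in wild-type M2. Cct4 had 9.60, 9.58 and 9.56 in knockout M2, against 9.85, 9.73 and 9.74 in wild-type M2. No knockout array reached a wild-type one for these 3 genes. Non-overlapping arrays were found for 0 chaperones higher and 4 lower in knockout M2, these 3 and Dnajb6 (-0.21, adjusted p = 0.606), beside 8.97% and 10.3% of all genes. All 8 TRiC subunits were negative, 6 of them no farther from 0 than -0.12. All 8 were also negative with arrays scaled to the median of all probes and on the authors' processed values, and 7 with cyclic loess normalization. Only 3 of 8 were negative when arrays were scaled to the median of the detected probes, a setting chosen after seeing the data. The median over the 31 was -0.05, and 0.03 under that last scaling. Its sign depends on the scaling, so no direction can be given for the set. Marco, a scavenger receptor used here as a macrophage marker, was the 1 alveolar macrophage marker of 6 detected that passed between genotypes, lower in knockout cells, with differences of -1.14 ± 0.121 in M2 and -1.27 ± 0.121 in M0 (SE; adjusted p = 0.000714 and 0.000354). In M0 cells the other 5 averaged slightly higher in knockout cells, such as Siglecf with 10.21 against 10.17 log2 units and Itgax with 10.79 against 10.69. The relation of Marco to the chaperone values was not tested.

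**Figure D4:**
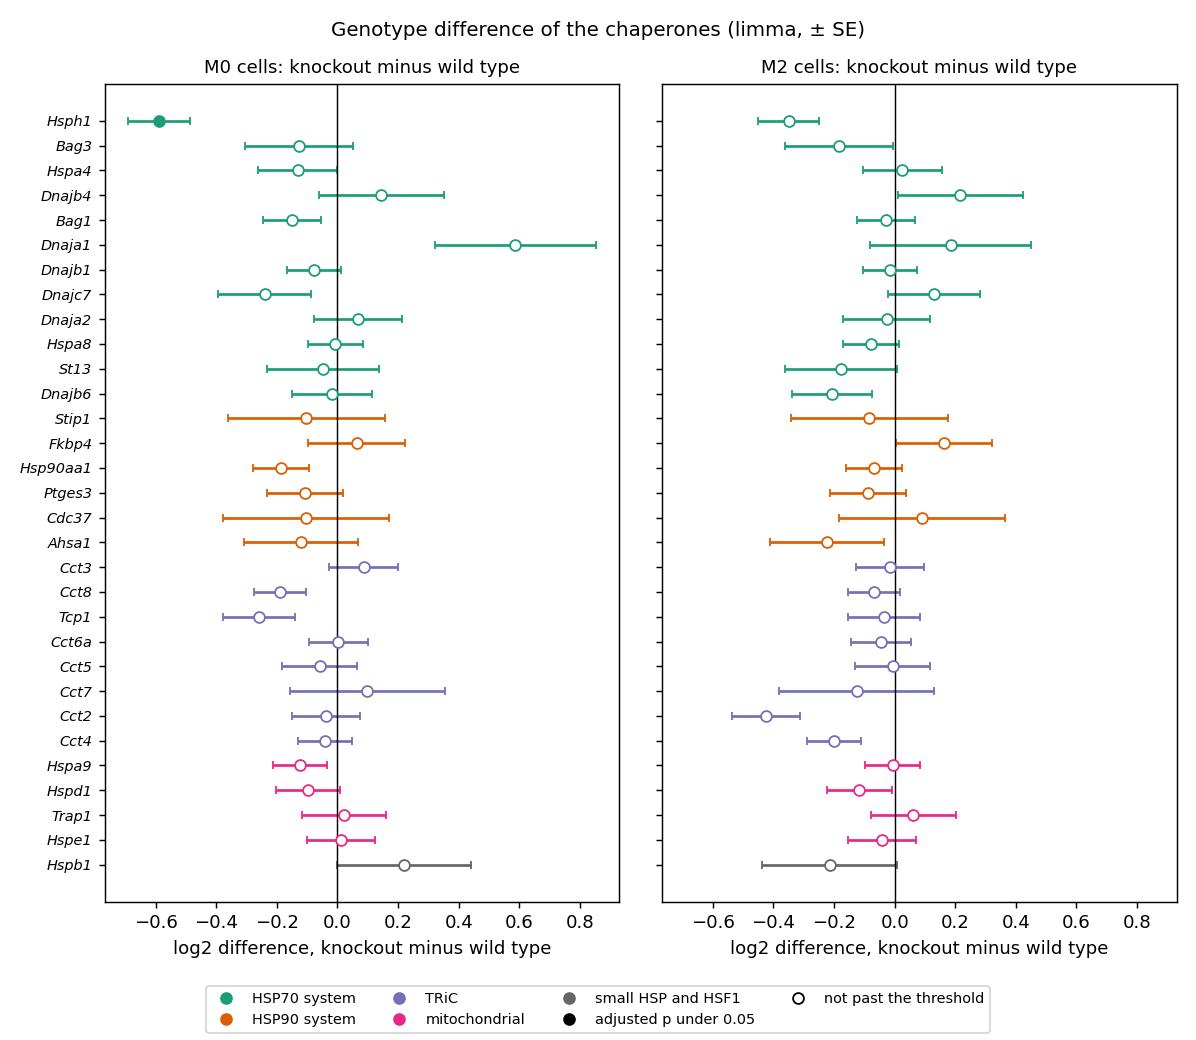
Genotype difference of the 31 chaperones, knockout minus wild type, as log2 difference with its standard error from limma, in M0 cells (left) and M2 cells (right), in the family colours of the IL-4 plot; filled points passed an adjusted p of 0.05. Hsph1 in M0 cells is the single filled point, and Cct2 lies farthest left in M2 cells.

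Whether the 2 genotypes responded differently was asked with the knockout response minus the wild-type response. It passed for 0 of the 31 with limma, beside 0.107% of all genes, and for 0 under each of the 23 alternatives. Its values ran from -0.43 for Hspb1 to 0.37 for Dnajc7, with 16 positive and a median of 0.02, and 1 of the 31 (3.23%) had an unadjusted p under 0.05, Cct2 (-0.39 ± 0.158 SE, adjusted p = 0.725), against 6.64% of all genes. For Hsph1 it was 0.24 ± 0.144 (adjusted p = 0.901), so its larger rise in knockout cells is not shown to differ from that in wild-type cells. The calls of Hsp90aa1, Tcp1 and Dnajb6 in knockout cells alone fall under the same test, with differences of 0.12, 0.22 and -0.19 (adjusted p = 0.973, 0.946 and 0.966).

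Chaperones around the set were read from lists chosen by function. All 13 ER chaperones tested rose under IL-4 in knockout cells and 12 of 13 in wild-type cells, beside 10.3% and 8.43% of all genes. Their medians were 0.77 and 0.74 log2 units, against 0.30 and 0.26 for the cytosolic and mitochondrial ones. The disulfide isomerase Pdia4 rose by 2.13 ± 0.142 and 1.69 ± 0.142, and the secreted ER factor Manf by 1.83 ± 0.115 and 1.33 ± 0.115 (SE; adjusted p = 2.33e-06 and 3.26e-05 for Pdia4, 1.55e-06 and 3.62e-05 for Manf). The knockout call of Canx, a lectin chaperone, was marginal (0.38, adjusted p = 0.0499) and held in 7 of 22 alternatives. Pdia6 was undetected in at least 1 group of each genotype, so its own differences include values near background. It passed the detection filter only through the other groups, and it is counted among the 13 and the 12 and in both medians. Both lists come from the same arrays, and the gap between their medians was not tested.

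**Figure D5:**
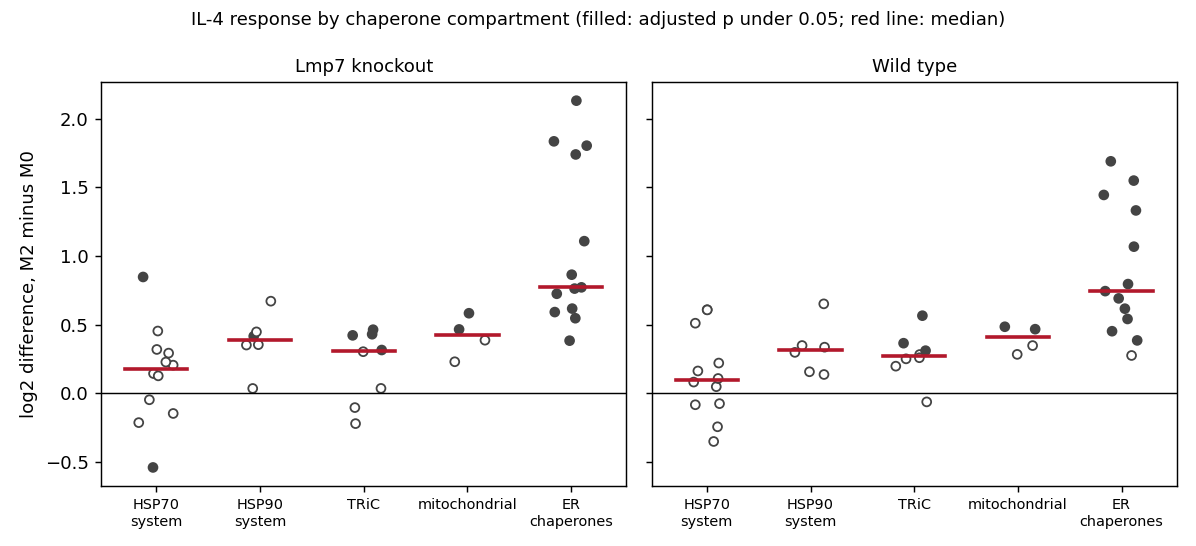
IL-4 response of each tested gene (points) as log2 difference, M2 minus M0, in 4 chaperone families and in the ER chaperones, for knockout (left) and wild-type cells (right); filled points passed an adjusted p of 0.05 and red lines are medians. The ER medians of 0.77 and 0.74 lie above the medians of the 4 families, which run from 0.09 to 0.43.

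Of 11 other mitochondrial folding and protease genes tested, 3 rose and 1 fell in knockout cells and 4 rose and 1 fell in wild-type cells. For this and the following lists, 10.3% of all genes rose and 11.4% fell in knockout cells. In wild-type cells 8.43% rose and 7.62% fell. Dnaja3, the J protein that works with Hspa9, rose by 0.67 ± 0.112 and 0.53 ± 0.112 (SE; adjusted p = 0.00141 and 0.00853), and Phb2, a prohibitin of the inner membrane, by 0.69 and 0.54. Hscb, a J protein of iron-sulfur cluster transfer, fell by 0.88 and 0.82. Of 4 prefoldin-group genes, which pass actin and tubulin to TRiC, 2 rose in knockout cells (Pfdn2 by 0.50 and Pfdn4 by 0.51) and Pfdn4 in wild-type cells (0.43). Among 14 further HSP90 cochaperones, Tomm70a, the import receptor that docks HSP70 and HSP90 at mitochondria, rose in both genotypes (0.79 and 0.84), and Ppid and Aarsd1 rose in wild-type cells (0.53 and 0.44), calls that held in 15 and 10 of 23 alternatives. Of 7 other HSP70 and exchange factor genes, the HSP70 relatives Hspa12a and Hspa2 fell in both, by 1.26 and 0.90 and by 0.73 and 0.55. The 6 other J proteins and 3 other small heat shock or HSF genes tested had no member past the threshold in either genotype.

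The lists held 13, 11, 4, 14, 7, 6 and 3 tested genes, and 1 of all these passed in the genotype contrasts. Of all genes, 0.686% passed in M0 and 2.04% in M2 cells, so this count is not shown to be particular to the lists. Dnajc15, a mitochondrial J protein of the import motor, had 8.32, 8.06 and 8.04 log2 units in knockout M2 and 8.57, 8.39 and 8.39 in knockout M0, against 7.22, 7.37 and 7.09 in wild-type M2 and 7.16, 6.99 and 6.97 in wild-type M0. Every knockout array lay above every wild-type array. The difference was 1.41 ± 0.120 in M0 and 0.91 ± 0.120 in M2 cells (SE; adjusted p = 0.000164 and 0.00321), and it passed in all 23 alternatives. Its IL-4 response did not pass in either genotype, at -0.31 in knockout and 0.19 in wild-type cells (adjusted p = 0.0908 and 0.345).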

How the data were processed

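RNA of 12 samples was measured on Illumina BeadArrays. The deposited intensities, not normalized per the file headers, were whole numbers from -72 to 12659 with a detection p-value for each of 25697 probes. The authors' processed intensities, deposited on a linear scale with replicate numbers, served as an alternative, since columns of the other table name the group only; its arrays are called a, b and c in column order. The labels and headers name no software and no build. Of the probes, 23978 had 1 gene symbol in the platform annotation and 1719 had none.

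The normexp method of limma 3.58.1 (R 4.3.3), with background taken from the detection p-values and an offset of 16, was followed by quantile normalization and log2. A probe was kept if 3 or more of the 12 arrays gave it a detection p below 0.05 (9200 probes), and the brightest stood for a gene (6563 genes). One linear model held 4 group means, with 8 residual degrees of freedom; p-values were moderated (eBayes) and adjusted by Benjamini-Hochberg over all genes, at a threshold of 0.05. A log2 difference is followed by its model standard error (±). The number of arrays limits the precision. Deviations of same-numbered arrays from their group means, in the authors' processed values, correlated above 0.1 for all 3 pairs between knockout M2 and knockout M0 (0.179 to 0.363) and between knockout M0 and wild-type M0 (0.116 to 0.383), which was taken as pairing for these 2 comparisons, from the data and not from the labels. All 3 pairs between knockout M2 and wild-type M0, which differ in genotype and in IL-4, also correlated above 0.1 (0.138 to 0.395). With wild-type M2, 1 of 3 pairs did so against knockout M2 and 1 of 3 against wild-type M0. Against knockout M0 it was 0 of 3. The numbers of wild-type M2 were not taken as pairing. Arrays of different genotypes come from different mice, so pairing here means no more than a shared number. The main fit did not use the numbers. The block fit used them for all 4 groups, wild-type M2 included. The steps were tested on simulated data.

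The members, the related lists and the rule for named genes were chosen with earlier results of these data known. The rule gave each array's value for members past the threshold and for the main HSP70, HSP90, HSP60 and small heat shock genes with Bag3, the rest by range, and up to 4 genes of each related list. Cct2, Cct4 and Dnajc15 were given by array after their values were seen. Of the 37 members, 33 matched a probe and 30 a promoter window. Plots used matplotlib 3.10.9 in Python 3.11.15.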

Additional observations from a re-analysis of the deposited data

How the results depend on the processing

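The 16 gene calls were refitted under 23 settings, 2 of them chosen after seeing the data (scaling to the median of the detected probes, and leaving out the 3 arrays of lowest detected share). Of 368 such refits, 307 kept the call, 61 lost it and 0 reversed it; 36 were lost by leaving out 1 array and 14 by scaling to the median of all probes, and 10 calls survived every single-array omission. That median scaling gave 2 chaperones past the threshold for IL-4 in knockout cells, 0 in wild-type cells and 0 between genotypes in M0 cells; the cause was not tested. Keeping only probes with a detection p under 0.01 on all 12 arrays, which left 25 members and 3005 genes, gave 17 chaperones in knockout cells (15 higher and 2 lower), 11 in wild-type cells (10 higher and 1 lower) and 1, Hsph1, between genotypes in M2 cells (adjusted p = 0.0313). The share of the 3005 genes called under that filter is not given. The higher counts are therefore not shown to be particular to the chaperones. Leaving out the 3 arrays of lowest detected share gave 6 in knockout cells, 7 in wild-type cells and 0 between genotypes in M0 cells. In knockout cells this lost Cct3, Cct8, Hsp90aa1 and Tcp1 and gained Fkbp4. In wild-type cells it lost Cct8 and gained Dnaja1 and Stip1. Leaving out 1 array at a time gave 6 to 9 in knockout cells, 4 to 8 in wild-type cells and 0 to 1 between genotypes in M0 cells, and 0 both in M2 cells and for the difference of the responses. The authors' processed values gave 9, 7 and 1 in knockout, wild-type and M0 contrasts, and the same values with the replicate number as a block gave 13, 9 and 1. The calls gained with the block in knockout cells, where the numbers were taken as pairing, were Fkbp4, Ptges3, Stip1 and Trap1. In wild-type cells, where the numbers were not taken as pairing, they were Bag3, Dnajb6 and Ptges3 (adjusted p = 0.0389, 0.0328 and 0.0314). Hsp90aa1 in wild-type cells passed on the authors' processed values and did not pass once the block was added. No other chaperone call changed with the block in the 4 group comparisons or in the difference of the responses. Over all groups 11 of 18 same-number pairs correlated above 0.1, other-number pairs ran from -0.338 to 0.134, and 10 of 12 arrays correlated best with their own number, a hint from the data and not from the design. The highest other-number value, 0.134, was between knockout M0 and wild-type M0, above the lowest same-number value of that comparison, 0.116. What a shared number stands for was not tested. Chip as a block was not run, since no column names a chip. Among the related lists, Canx in knockout cells held in 7 of 22 alternatives and Aarsd1 in wild-type cells in 10 of 23. Dim probes such as those of Hspb1, Dnaja1 and Dnajb4 lie near background, which limits what can be seen of them.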
